A study of Homo sapiens with 54 samples.

Results

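Expression was compared between HepG2 cultures exposed for 24 h to piperonyl butoxide at 45 µM and cultures exposed for 24 h to dimethyl sulfoxide (DMSO, the solvent) at 0.5 percent. The comparison holds 9 of the 54 arrays of the series, chosen by their titles. They were 3 biological replicates of piperonyl butoxide and 6 DMSO arrays, which came from 2 solvent exposures of 3 replicates each. HepG2 is an established human hepatocellular carcinoma line, so every value describes a single cell line. The other arrays held 48 h cultures and 6 further compounds, and entered the same statistical fit. These compounds were 2-nitrofluorene at 35 µM, clonidine at 95 µM and methapyrilene hydrochloride at 114 µM. The rest were nifedipine at 420 µM, tolbutamide at 2.1 mM and the nitrosamine NNK at 10 mM. Each dose was the same at both times. The labels name the 2 DMSO arrays of the same number as the controls of each piperonyl butoxide array, and replicates were paired by that number.

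Piperonyl butoxide is a methylenedioxyphenyl compound that is sold as an insecticide synergist. It has little insecticidal action of its own and acts by blocking the cytochrome P450 enzymes with which insects break down pyrethrins. The block arises when a P450 oxidises the methylenedioxy group to a product that stays bound to the heme iron. In rodents the compound is also known to raise the amount of liver P450 enzymes after repeated dosing and to cause liver tumours at high doses without damaging DNA directly. HepG2 cells keep many liver functions but have low activity of most drug-metabolizing P450 enzymes compared with hepatocytes.

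The deposited table has 20056 rows, each an Ensembl gene ID with a log2 expression value on every array, so that 1 unit is a doubling. The authors normalized the values between arrays, which hides any change in the amount of RNA per cell. The files do not pair the IDs with gene names, and 0 of the IDs were matched to a symbol in the reference table used here. Genes are therefore given by ID, with the 2 largest rises and the 2 largest falls of a comparison, no role is stated for them, and liver markers, gene lists and sequences were not analysed here. In bulk RNA, fewer cells of a kind and less RNA per cell cannot be told apart.

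The range of values differed among the 9 arrays. Regressed on the mean over all 54 arrays, the values had a slope of 0.980 in piperonyl butoxide replicate 1, 0.858 in replicate 2 and 0.992 in replicate 3. The slope was 1.01, 1.04 and 1.03 in the 3 arrays of DMSO exposure 1, and 1.04, 0.911 and 1.03 in the 3 arrays of exposure 2. Piperonyl butoxide replicate 2 and DMSO exposure 2 replicate 2 were thus compressed, with low values higher and high values lower than on the other 7 arrays. The 5th and 95th percentiles were 3.46 and 9.73 on the compressed piperonyl butoxide array, against 3.32 and 10.1 on replicate 1 and 3.35 and 10.2 on replicate 3. On the compressed DMSO array they were 3.41 and 9.80, and the 95th percentile was 10.2 on each of the other 5 DMSO arrays. Without the compressed array, the median SD over rows fell to 0.129 among the piperonyl butoxide arrays, against 0.265 with all 3. Among DMSO arrays it was 0.174 without the compressed array and 0.243 with all 6. Counts of calls and the largest changes against DMSO are given with all arrays and without these 2 compressed arrays.

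**Figure D1:**
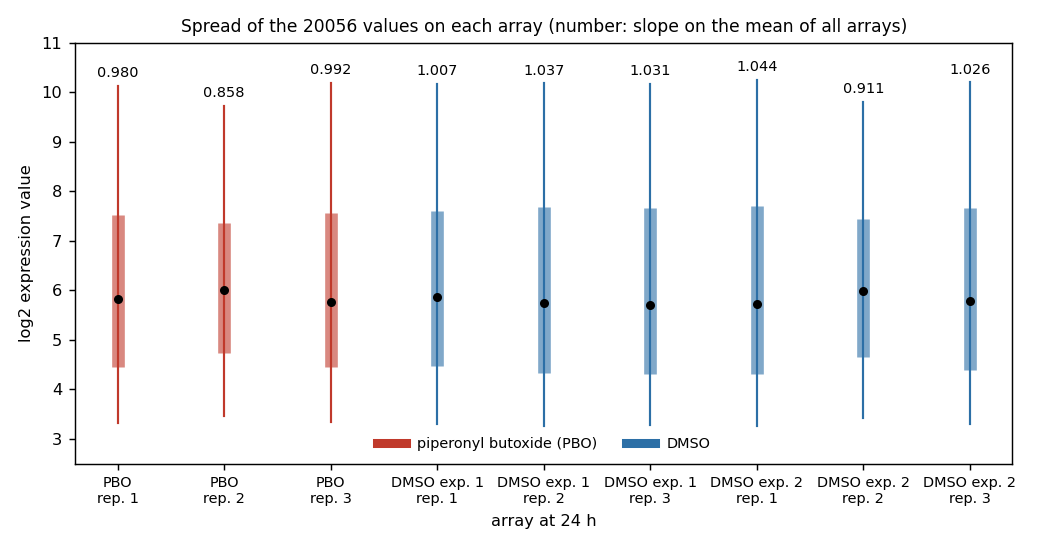
Log2 expression values on each of the 9 arrays at 24 h, with piperonyl butoxide (PBO) in red and DMSO in blue. Thin lines run between the 5th and 95th percentiles, thick bars between the 25th and 75th, dots mark the median, and the number above each array is its slope on the mean of all 54 arrays. Piperonyl butoxide replicate 2 (0.858) and DMSO exposure 2 replicate 2 (0.911) have the shortest ranges.

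Exposure to piperonyl butoxide changed the expression of 5208 rows at 24 h, which is 26.0 percent of those tested (limma, adjusted p under 0.05 after Benjamini-Hochberg adjustment over all 20056 rows). Of these, 2183 rose (10.9 percent of rows) and 3025 fell (15.1 percent), so 41.9 percent of the calls were rises. Without the 2 compressed arrays 4055 rows were called, or 20.2 percent, of which 1575 rose (7.85 percent of rows) and 2480 fell (12.4 percent). Of the calls, 1490 rises and 2416 falls were shared between the 2 settings, and 0 rows were called in opposite directions. The solvent itself gave a background of 0 calls between the 2 DMSO exposures at 24 h in limma, with 271 rows at an unadjusted p under 0.05. That is below the share of 0.05 of rows that no difference would give. The solvent comparison sets 3 arrays against 3, so it has less power than that of piperonyl butoxide, with 3 against 6. The number of solvent calls was also 0 without the 2 compressed arrays (132 rows at an unadjusted p under 0.05). It was 1 (0.00499 percent) without the 4 compressed arrays of the whole series, the other 2 being arrays of other groups. In that setting 619 rows had an unadjusted p under 0.05. Piperonyl butoxide gave 6333 calls (31.6 percent) in that last setting. With limma array weights, 11711 rows (58.4 percent) were called for piperonyl butoxide. Rises then outnumbered falls, with 6823 (34.0 percent) and 4888 (24.4 percent). The weights were 6.30 for piperonyl butoxide replicate 1, 0.140 for replicate 2 and 0.416 for replicate 3. This setting thus rests mostly on replicate 1 for the exposed group.

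The largest rise was that of ENSG00000109321. Its log2 value was 12.6, 12.3 and 12.7 in the 3 piperonyl butoxide cultures, against 7.64, 7.42 and 7.08 in DMSO exposure 1 and 7.30, 5.50 and 6.38 in DMSO exposure 2. The groups did not overlap, and the compressed DMSO array held the lowest value (5.50). The mean was 12.5 ± 0.19 in piperonyl butoxide (SD, n = 3) and 6.89 ± 0.81 in DMSO (SD, n = 6), a log2 change of 5.65 (SE 0.43), or 50.1-fold, with an adjusted p of 4.05e-13 in limma. Without the 2 compressed arrays the change was 5.42 (SE 0.50, adjusted p = 1.43e-10).

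ENSG00000169429 had the second largest rise. Its log2 value was 9.78, 9.95 and 9.66 in piperonyl butoxide, against 4.98, 5.39 and 4.60 in DMSO exposure 1 and 4.83, 4.74 and 4.89 in exposure 2. All 3 exposed cultures lay more than 4 log2 units above every DMSO culture. Each replicate against its own 2 DMSO arrays gave nearly the same difference, 4.88 for replicate 1, 4.89 for replicate 2 and 4.91 for replicate 3. The fitted change was 4.89 (SE 0.23, 29.7-fold, adjusted p = 1.09e-18 in limma), and 4.81 (SE 0.28, adjusted p = 1.70e-15) without the 2 compressed arrays.

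The largest fall was that of ENSG00000059804. It had log2 values of 6.75, 5.65 and 6.94 in piperonyl butoxide, against 9.56, 11.2 and 11.3 in DMSO exposure 1 and 10.6, 9.63 and 11.1 in exposure 2. The groups did not overlap, although the DMSO arrays themselves ran between 9.56 and 11.3. The change was -4.10 (SE 0.41, 17.2-fold lower, adjusted p = 2.10e-10 in limma), and -3.88 (SE 0.46, adjusted p = 3.23e-08) without the 2 compressed arrays.

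ENSG00000101003 followed, with log2 values of 7.15, 5.37 and 7.39 in piperonyl butoxide, against 10.5, 10.4 and 10.1 in DMSO exposure 1 and 10.8, 9.47 and 10.3 in exposure 2. The compressed arrays held the lowest value of each group. The change was -3.61 (SE 0.37, 12.2-fold lower, adjusted p = 3.98e-10 in limma), and it was -3.19 (SE 0.41, adjusted p = 1.34e-07) without them.

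**Figure D2:**
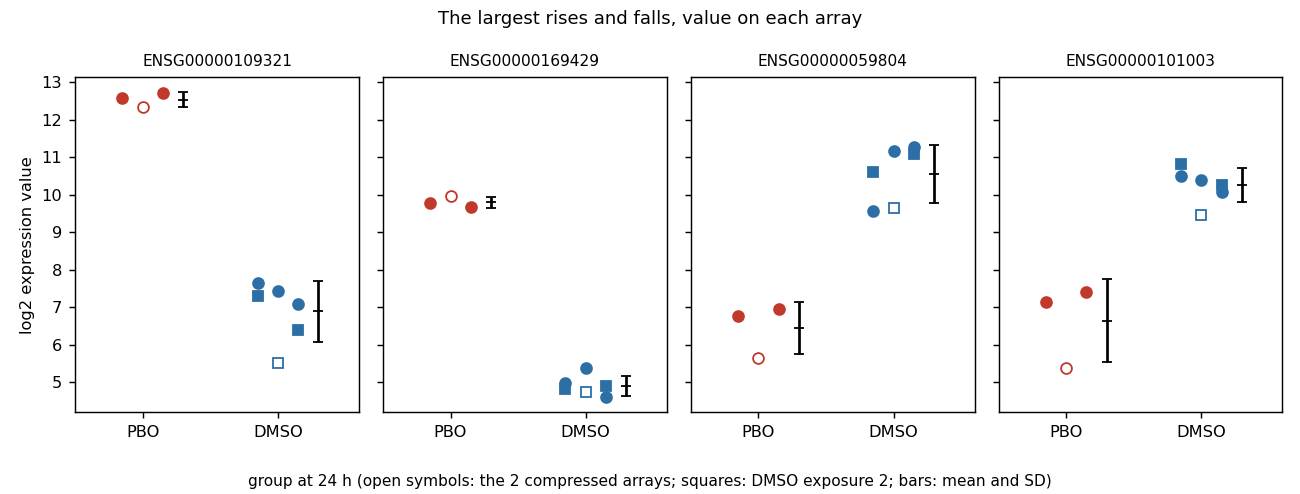
Log2 expression values of the 2 IDs with the largest rises and the 2 with the largest falls, on each array at 24 h, with piperonyl butoxide (PBO) left and DMSO right in each panel. Points within a group run by replicate number, squares are DMSO exposure 2, open symbols are the 2 compressed arrays, and bars give the mean and SD over all arrays of the group. In all 4 panels the groups do not overlap.

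Rises reached further than falls, while falls were more numerous and typically larger. Among the 2183 rises the median log2 change was 0.60, and 463 exceeded 1, 84 exceeded 2, 24 exceeded 3 and 9 exceeded 4. Among the 3025 falls the median was -0.81, and 1062 were beyond -1, 132 beyond -2, 10 beyond -3 and 1 beyond -4. The share of calls beyond 1 log2 unit was 21.2 percent of rises and 35.1 percent of falls. Leaving out the 2 compressed arrays gave 30.5 and 40.0 percent, with medians of 0.75 and -0.88. The number of rises above 4 was 9 in that setting too, and the number of falls beyond -4 was 0.

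The 3 replicates gave similar profiles of change. Each replicate set against the mean of its own 2 DMSO arrays gave a change for every row, and no array was used for more than 1 replicate. Across rows, these changes correlated at r = 0.784 between replicates 1 and 2, 0.823 between 1 and 3 and 0.761 between 2 and 3, as a description over genes that are not independent. The SD of the changes over rows was 0.612, 0.679 and 0.546 for replicates 1, 2 and 3. All 3 replicates had the sign of the fitted change in 2160 of the 2183 rises and 2992 of the 3025 falls, which is 98.9 percent of each. Those rows were called from the same arrays, so this agreement is largely built in and is given as a description. Rows in which all 3 piperonyl butoxide arrays lay above all 6 DMSO arrays numbered 1455 (7.25 percent of rows), and 1903 (9.49 percent) lay below all 6. Without the 2 compressed arrays 3697 rows (18.4 percent) lay above and 3399 (16.9 percent) below, where 2 arrays against 5 separate more easily. Falls were thus the larger set with all arrays and rises without the 2 compressed ones.

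The direction of change went with the level of a row in DMSO. The rows were ranked by their mean in DMSO at 24 h and divided into 4 sets of 5014. The same DMSO arrays enter each change, which by itself tends to place rises in low sets and falls in high ones. Rows near the lowest values also have little room to fall. How much of the trend this makes up was not tested, so the trend is given as a description. In the lowest set, with DMSO means up to 4.42, 290 rows rose and 60 fell. In the set between 4.42 and 5.81, 506 rose and 307 fell. In the set between 5.81 and 7.61, 767 rose and 1008 fell. In the highest set, above 7.61, 620 rose and 1650 fell, so 32.9 percent of its rows were called lower. That set also held 712 of the 1062 falls beyond 1 log2 unit.

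The change of replicate 2 followed this pattern more strongly than that of the other replicates. It sets the compressed piperonyl butoxide array against the mean of 2 DMSO arrays, 1 of them compressed. In the highest set the median change of a row was -0.37 in replicate 2, against -0.19 in replicate 1 and -0.14 in replicate 3. In the set between 4.42 and 5.81 it was 0.33 in replicate 2, against 0.10 in replicate 1 and 0.13 in replicate 3. Without the 2 compressed arrays the highest set still held more falls than rises, 1295 and 520, and the lowest set held 131 rises and 51 falls. After quantile normalization, which gives every array the same distribution, the highest set held 1348 falls and 872 rises. In that setting the set between 5.81 and 7.61 held 900 falls and 904 rises, so its excess of falls among all calls was no longer present. Beyond 1 log2 unit it still held more falls than rises, 307 and 209. Over all rows the quantile-normalized values gave 5185 calls (25.9 percent), with 2423 rises (12.1 percent of rows) and 2762 falls (13.8 percent), so 46.7 percent of the calls were rises.

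**Figure D3:**
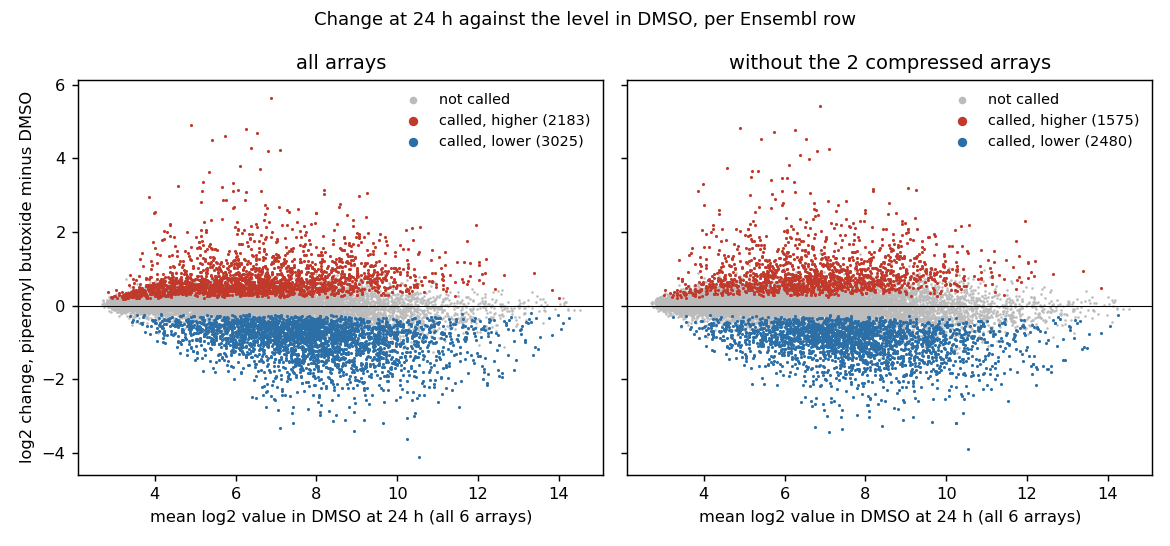
Log2 change at 24 h (piperonyl butoxide minus DMSO) of each of the 20056 rows against its mean log2 value in DMSO, with all arrays (left) and without the 2 compressed arrays (right). Red points were called higher and blue points lower at an adjusted p under 0.05 in limma. The band of small rises among rows with low DMSO values is thinner in the right panel. The DMSO values enter both axes.

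**Figure D4:**
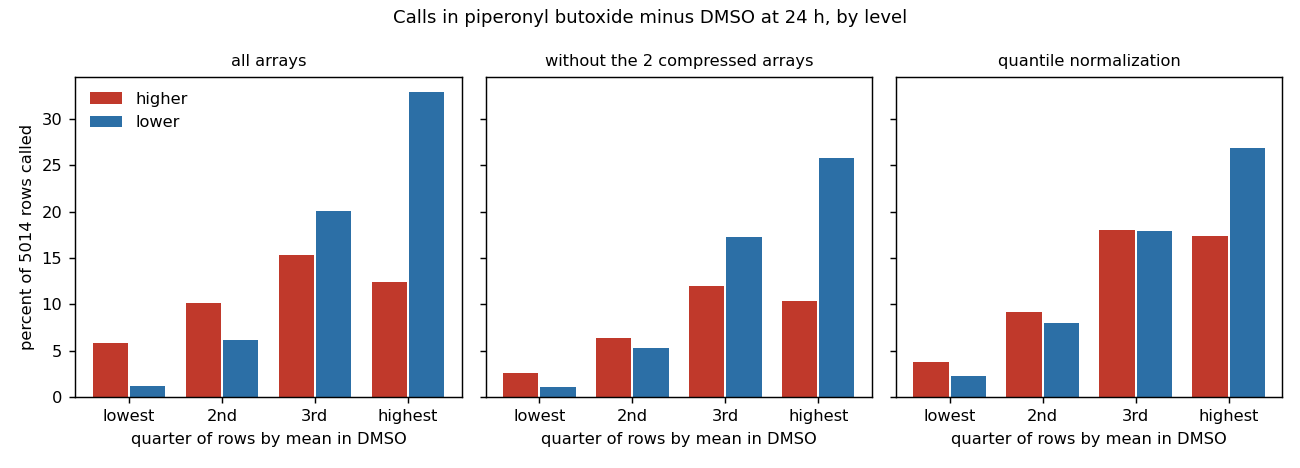
Percent of rows called higher (red) or lower (blue) under piperonyl butoxide at 24 h, in 4 sets of 5014 rows ranked by their DMSO mean, under 3 settings. In the highest set falls outnumber rises in all 3 panels (32.9 against 12.4 percent with all arrays). The DMSO arrays that rank the rows also enter each change.

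The response was set against those to 3 other compounds at 24 h by direct differences between the means of the exposed cultures. The DMSO arrays stayed in the fit, where they add to the estimate of the spread and of the replicate block. Methapyrilene, an antihistamine, is known, like piperonyl butoxide, as a liver carcinogen of rodents that does not act through DNA damage. Piperonyl butoxide differed from methapyrilene at 114 µM in 4615 rows (23.0 percent), with 2016 higher (10.1 percent) and the rest lower under piperonyl butoxide (limma). Leaving out the 2 compressed arrays gave 3092 rows (15.4 percent), and leaving out only piperonyl butoxide replicate 2 gave 3050. With only the 2 compared groups in the fit, 2403 rows were called. ENSG00000109321 was higher than under methapyrilene by 6.44 (SE 0.50, adjusted p = 1.66e-12) and ENSG00000169429 by 5.37 (SE 0.27, adjusted p = 7.16e-18). ENSG00000059804 was lower, with a difference of -3.69 (SE 0.47, adjusted p = 9.18e-08), and so was ENSG00000196660, with -3.60 (SE 0.41, adjusted p = 1.30e-08). The last of these had log2 values of 5.01, 4.30 and 7.56 in piperonyl butoxide and 8.72, 9.05 and 9.91 in methapyrilene. Replicate 3 of piperonyl butoxide thus lay closer to methapyrilene than the other 2 did.

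Against 2-nitrofluorene at 35 µM, a nitrated aromatic compound, 4677 rows differed (23.3 percent), with 1901 higher (9.48 percent) and 2776 lower (13.8 percent) under piperonyl butoxide. The count was 3186 (15.9 percent) without the 2 compressed arrays and 2899 without 2-nitrofluorene replicate 2. It was 1033, with 302 higher and 731 lower, when only the 2 compared groups were fitted. ENSG00000169429 was higher by 4.75 (SE 0.27, adjusted p = 4.70e-16 in limma). ENSG00000102760 was higher by 4.73 (SE 0.31, adjusted p = 2.39e-14), with log2 values of 9.90, 10.2 and 9.63 in piperonyl butoxide and 4.73, 5.45 and 5.40 in 2-nitrofluorene. ENSG00000101003 and ENSG00000059804 were lower, with differences of -3.66 (SE 0.42, adjusted p = 1.62e-08) and -3.64 (SE 0.47, adjusted p = 1.31e-07). In 2-nitrofluorene these 2 IDs averaged 10.3 ± 0.22 and 10.1 ± 0.63 (SD, n = 3), near their DMSO means of 10.2 ± 0.45 and 10.6 ± 0.77 (SD, n = 6).

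Against nifedipine at 420 µM, a calcium channel blocker, 4900 rows differed (24.4 percent), with 2296 higher (11.4 percent) and the rest lower under piperonyl butoxide. The count was 2960 (14.8 percent) without the 2 compressed arrays, 2768 without nifedipine replicate 2 and 2929 with only piperonyl butoxide replicate 2 left out. A fit of only the 2 compared groups called 1193 rows, with 391 higher and 802 lower. Array weights gave more calls in all 3 of these differences, and rows higher under piperonyl butoxide then outnumbered lower ones. The numbers were 5926 and 4472 for methapyrilene, 4889 and 4243 for 2-nitrofluorene and 6557 and 4351 for nifedipine. In that fit most of the weight of the piperonyl butoxide group lay on replicate 1. ENSG00000143632 was higher by 5.16 (SE 0.25, adjusted p = 3.11e-18 in limma), with log2 values of 11.2, 11.1 and 10.8 in piperonyl butoxide and 5.66, 5.72 and 6.27 in nifedipine. ENSG00000102760 was higher by 5.11 (SE 0.31, adjusted p = 5.38e-15). ENSG00000232931 was lower, with 4.80, 3.40 and 5.08 in piperonyl butoxide and 8.41, 7.96 and 7.79 in nifedipine (difference -3.63, SE 0.44, adjusted p = 5.45e-08). ENSG00000250337 was lower too, with 3.74, 3.43 and 5.47 in piperonyl butoxide and 8.0, 7.75 and 7.62 in nifedipine (difference -3.58, SE 0.61, adjusted p = 2.08e-05).

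The 2 IDs that fell most under piperonyl butoxide were lower than under nifedipine as well, by smaller differences. ENSG00000059804 averaged 6.45 ± 0.70 in piperonyl butoxide and 8.75 ± 0.14 in nifedipine (SD, n = 3 each), and the difference of -2.30 (SE 0.47) had an adjusted p of 0.000269. ENSG00000101003 averaged 6.64 ± 1.10 in piperonyl butoxide and 8.82 ± 0.29 in nifedipine (SD, n = 3 each), a difference of -2.19 (SE 0.42, adjusted p = 0.000139 in limma). Without the 2 compressed arrays the differences shrank to -1.885 (adjusted p = 0.00753) for ENSG00000059804 and -1.65 (adjusted p = 0.00831) for ENSG00000101003 in limma. The 2 IDs that rose most stood apart from all 3 compounds. ENSG00000109321 was highest at 12.5 in piperonyl butoxide, followed by 8.22 ± 0.60 in 2-nitrofluorene, 7.87 ± 0.28 in nifedipine and 6.09 ± 0.26 in methapyrilene (SD, n = 3 each), while DMSO had 6.89. ENSG00000169429 averaged 9.80 ± 0.15 in piperonyl butoxide, against 5.05 ± 0.31 in 2-nitrofluorene, 4.70 ± 0.24 in nifedipine and 4.43 ± 0.10 in methapyrilene (SD, n = 3 each).

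Over the 16 groups of the series, the 2 piperonyl butoxide groups were at the end of the order of means for all 4 of these IDs, which were chosen for their change at 24 h, so the order is given as a description. ENSG00000169429 averaged 9.16 ± 1.24 in piperonyl butoxide at 48 h (SD, n = 3). Its means in the other 14 groups lay between 4.13 ± 0.20 in tolbutamide at 24 h and 5.05 in 2-nitrofluorene at 24 h, so no other compound brought it near. ENSG00000109321 averaged 11.7 ± 1.35 in piperonyl butoxide at 48 h (SD, n = 3). Its other means were spread more widely, down to 5.33 ± 0.39 in clonidine at 24 h and 4.61 ± 0.086 in clonidine at 48 h (SD, n = 3 each). ENSG00000059804 averaged 5.88 ± 0.59 in piperonyl butoxide at 48 h, and the nearest group was nifedipine at 48 h with 7.44 ± 0.60 (SD, n = 3 each). ENSG00000101003 averaged 4.93 ± 1.38 in piperonyl butoxide at 48 h, and the next groups above the piperonyl butoxide ones were nifedipine at 48 h with 6.92 ± 0.68 and methapyrilene at 48 h with 7.49 ± 0.43 (SD, n = 3 each). For this ID the means of piperonyl butoxide at 24 h, 6.64 ± 1.10, and nifedipine at 48 h differed by less than their SDs. Replicate 1 of piperonyl butoxide at 48 h, a compressed array, held the lowest of the 3 values of that group for all 4 IDs. For ENSG00000101003 it had 3.34, against 5.63 and 5.82 in replicates 2 and 3.

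Most rows called at 24 h had a change of the same sign at 48 h, in cultures and DMSO controls that share no array with those of 24 h. Across rows, the fitted changes at the 2 times correlated at r = 0.873, as a description over genes. Of the 2183 rises at 24 h, 2118 had a positive change at 48 h, and of the 3025 falls 2954 had a negative one. These counts take the sign alone, whether or not the row was called at 48 h. The share of all rows with each sign at 48 h was not counted. The median change of these rises was 0.63 at 48 h and 0.60 at 24 h, and that of the falls was -0.89 at 48 h and -0.81 at 24 h. Both times held a compressed piperonyl butoxide array, 24 h replicate 2 and 48 h replicate 1. Without the 4 compressed arrays of the series, 2829 of 2947 rises and 3279 of 3386 falls at 24 h had the same sign at 48 h. The correlation across rows was then 0.885. The 4 IDs with the largest changes did not pass the test of a time difference. The difference was -0.31 (SE 0.61, adjusted p = 0.818) for ENSG00000109321 and -0.58 (SE 0.33, adjusted p = 0.434) for ENSG00000169429. It was -0.87 (SE 0.57, adjusted p = 0.497) for ENSG00000059804 and -0.89 (SE 0.52, adjusted p = 0.443) for ENSG00000101003 in limma. Without the 4 compressed arrays of the whole series the first 2 were 0.77 and 0.18, so their sign was not settled.

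The change at 48 h differed from that at 24 h in 214 rows (1.07 percent), with 93 higher (0.464 percent) and 121 lower (0.603 percent) at 48 h. In 136 of them the change had the same sign at both times and was larger at 48 h, in 18 it was smaller at 48 h, and in 60 the signs were opposite. The count depended strongly on the setting. It was 74 without the replicate block, 4 with only the compared groups in the fit, 420 after quantile normalization, 349 after cyclic loess and 1801 with array weights. Single arrays moved it too. It was 98 without piperonyl butoxide 24 h replicate 3, 126 without DMSO 24 h exposure 1 replicate 1, 784 without piperonyl butoxide 48 h replicate 2 and 625 without piperonyl butoxide 48 h replicate 3. With the 2 compressed arrays at 24 h left out, 150 rows (0.748 percent) were called. Replicate 1 of piperonyl butoxide at 48 h was itself compressed, with a slope of 0.678. Without all 4 compressed arrays of the series 391 rows differed (1.95 percent), with 222 higher (1.11 percent) and 169 lower (0.843 percent) at 48 h, so higher changes at 48 h were then the larger set.

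Among the rows in which the times differed, ENSG00000151012 and ENSG00000139269 had the largest drops. ENSG00000151012 had log2 values of 6.99, 9.17 and 8.42 in piperonyl butoxide at 48 h, with a DMSO range of 7.85 to 9.48 (median 9.02). The value of 6.99, the only one below that range, was on the compressed replicate 1. At 24 h it had 10.0, 9.45 and 9.80 in piperonyl butoxide, with a DMSO range of 6.71 to 7.53 (median 6.99). The change was thus -0.62 (SE 0.30, adjusted p = 0.0724) at 48 h and 2.68 (SE 0.30, adjusted p = 4.05e-09) at 24 h, and the difference of -3.30 had an adjusted p of 1.66e-05 in limma. The difference was -2.50 without piperonyl butoxide 48 h replicate 1, and -2.68 (adjusted p = 8.27e-07 in limma) without the 4 compressed arrays of the series. With only the compared groups in the fit the adjusted p was 0.0860, so this call was lost. The DMSO level was 8.82 ± 0.71 at 48 h and 7.07 ± 0.38 at 24 h (SD, n = 6 each), so the solvent cultures moved as well.

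ENSG00000139269 showed opposite signs at the 2 times. It was at 6.71, 7.12 and 7.50 in piperonyl butoxide at 48 h, below the DMSO range of 8.08 to 8.71 (median 8.47). At 24 h it was at 8.40, 7.15 and 7.94, above the DMSO range of 5.58 to 6.81 (median 6.00). The change was -1.32 (SE 0.22, adjusted p = 6.51e-06) at 48 h and 1.67 (SE 0.22, adjusted p = 1.35e-07) at 24 h, and the difference of -2.99 had an adjusted p of 2.53e-07 in limma.

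ENSG00000132002 was high at both times and higher at 48 h. Its log2 values were 12.1, 12.1 and 12.7 in piperonyl butoxide at 48 h, with DMSO between 9.24 and 9.74 (median 9.38). At 24 h they were 9.89, 11.7 and 10.8, with DMSO between 9.34 and 9.77 (median 9.58). The groups did not overlap at either time, but replicate 1 at 24 h lay only just above DMSO. The change was 2.87 at 48 h and 1.22 at 24 h (SE 0.20 each), and the difference of 1.65 had an adjusted p of 0.000831 in limma. This call was lost with only the compared groups in the fit (adjusted p = 0.234). Without the 2 compressed arrays at 24 h it was 2.16 (adjusted p = 3.44e-07).

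ENSG00000067057 had 8.42, 7.80 and 7.51 in piperonyl butoxide at 48 h, with DMSO between 4.11 and 4.84 (median 4.32). At 24 h it had 7.36, 6.89 and 6.13, with DMSO between 4.27 and 5.38 (median 4.80). The change was 3.52 (SE 0.25) at 48 h and 2.00 (SE 0.25) at 24 h, with a difference of 1.52 and an adjusted p of 0.0244 in limma. Without the 2 compressed arrays at 24 h the difference was 1.44 with an adjusted p of 0.0711, so this call was lost. Without the replicate block the adjusted p was 0.0514, and with only the compared groups in the fit it was 0.392. The call was also lost without piperonyl butoxide 24 h replicate 2 or 3 or 48 h replicate 1, with differences of 1.52, 1.25 and 1.32.

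**Figure D5:**
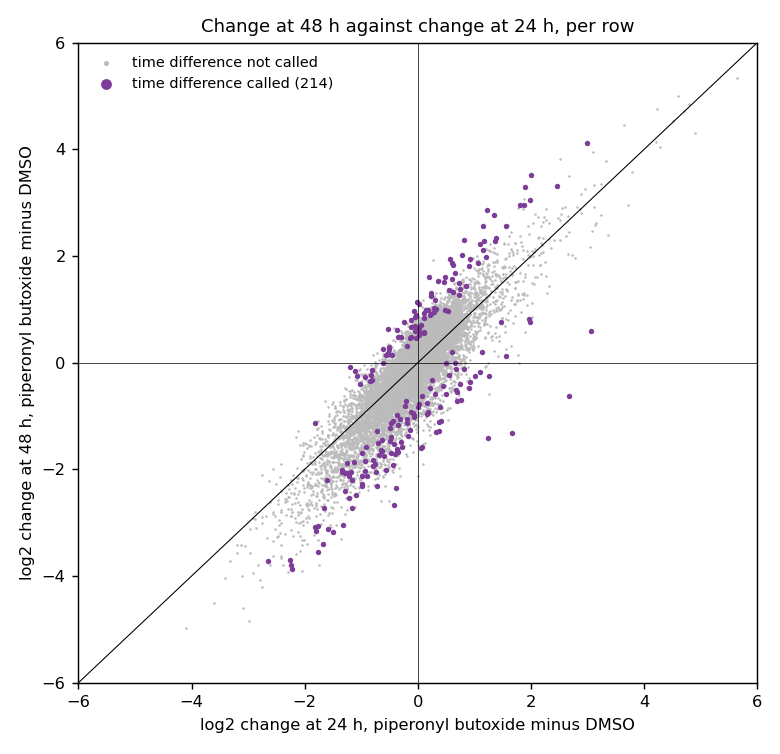
Log2 change of each of the 20056 rows at 48 h (vertical) against 24 h (horizontal), piperonyl butoxide minus DMSO at each time, all arrays. Purple points are the 214 rows in which the 2 changes differed at an adjusted p under 0.05 in limma, and the diagonal marks equal change. Most rows lie along the diagonal (r = 0.873).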

How the data were processed

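Gene expression was measured on 1-colour Affymetrix arrays, from biotinylated cRNA made from total RNA, per the labels' protocols. The authors deposited log2 values from RMA (per the submitters' processing notes), a method that subtracts background, equalises arrays and combines probes. For its version, the probe set definition and scan dates, the sources used here give nothing. The table had 0 missing values, and 0 pairs of arrays were identical. The number of arrays limits the precision.

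The deposited values were used unchanged. A linear model (limma 3.58.1 under R 4.3.3, two-sided moderated tests by eBayes) covered the 54 arrays, with 16 groups and, as a block, the replicate number within each time, which left 34 residual degrees of freedom. A row was called at a Benjamini-Hochberg adjusted p below 0.05 over the whole table. The DMSO exposures were compared with the same model and the exposures as separate groups. The pairing comes from the labels. Deviations from the group means correlated between -0.635 and 0.850 in the 9 pairs of same-numbered arrays at 24 h, and 5 pairs were above 0.1. The 0.850 was between the 2 compressed arrays, and the -0.635 between DMSO exposure 1 replicate 2 and the compressed DMSO array. These values thus say little about the pairing. The method was checked on simulated data, with noise independent between arrays and of the same spread on each. Compressed arrays were not simulated, so the check does not bear on their effect.

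IDs were named by the largest rises and falls among called rows. Against DMSO at 24 h, the change also needed 1 sign in the 3 replicates, each set against its own DMSO arrays. With 0 IDs matched to a symbol, the gene lists were not tested. The comparison, the arrays left out and the lists were chosen with earlier results of these data known. Alternatives were no block, other sets of arrays, DMSO exposures singly or averaged, the rows with the lowest means left out (a share of 0.25), median centring, quantile normalization, cyclic loess, a mean trend with robust eBayes, array weights and each array left out. Replicates are biological per the labels, which do not say whether they were separate passages.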

Additional observations from a re-analysis of the deposited data

Results flagged for a closer look

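Among the 6 DMSO arrays at 24 h, exposure 2 replicate 2 stood apart from the others in its slope on the mean of all arrays, at 0.911. Its gap to the nearest array was a share of 0.720 of the range of the group, above Dixon's critical value for 6 samples. Chance alone exceeds that value in about 1 group in 20 when no array was picked beforehand. This array had already been picked for its compressed range, so the ratio describes it and is not a separate test. The values of the 4 IDs with the largest changes did not exceed the critical value in these arrays.

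The response to piperonyl butoxide differed between 48 h and 24 h, by a direct test in limma, in 214 rows. The differences (change at 48 h minus change at 24 h) were 1.65 for ENSG00000132002, 1.52 for ENSG00000067057, -3.30 for ENSG00000151012 and -2.99 for ENSG00000139269.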

How the results depend on the processing

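The count for piperonyl butoxide against DMSO at 24 h was between 3844 and 6046 when 1 of the 9 arrays was left out. It was 4482 without the replicate block and 6333 without the 4 compressed arrays of the series. Array weights gave 11711, more than 1.5 times the reported count. All 92 values of the 4 IDs named for this comparison kept their sign and their call. So did all 64 values for each of the 3 differences between compounds.

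With only the compared groups in the fit, which leaves fewer arrays for the spread, piperonyl butoxide differed from 2-nitrofluorene in 1033 rows, from nifedipine in 1193 and from methapyrilene in 2403, and the times differed in 4 rows. Array weights gave 9132, 10908, 10398 and 1801 in the same order, and the cause was not tested. The nifedipine count was 2960 without the 2 compressed arrays. Leaving out 1 array gave 2899 to 4787 rows for 2-nitrofluorene, 2768 to 5524 for nifedipine, 3050 to 4805 for methapyrilene and 98 to 784 for the time difference. The time difference was called in 74 rows without the replicate block, 391 without the 4 compressed arrays, 420 after quantile normalization and 349 after cyclic loess. Of the 112 values of the 4 IDs named for it, 104 kept their call, 8 lost it and 0 changed sign. Rises made up 46.9 percent of the calls against nifedipine and 38.1 percent after median centring. The median difference over all rows was then 0.020, against 0.14. The DMSO exposures differed in 1 row without the 4 compressed arrays (adjusted p = 0.0465), a setting chosen after seeing the data. The block moved no other count by over 1.5 times.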
